A study of Mus musculus with 6 samples.

Results

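The red pulp macrophage and iron recycling genes are 10 transcripts of the spleen's iron-recycling phagocytes: Spic, Vcam1, Mertk, Axl, Hmox1, Slc40a1, Slc11a1, Csf1r, Hpgd and Treml4. They were taken by symbol, as every probe set whose single gene symbol in the platform annotation is one of these names. That gave 18 probe sets of the 45101 on the array and 10 of the 18193 genes with a probe set of their own. Each probe set is a group of short probes read together as 1 measurement. Whole spleen was studied in 6 Balb/c mice, 6 to 8 weeks old and labelled female, of which 3 control mice received no treatment. The other 3 mice received PFOS (perfluorooctane sulfonate), a fluorinated surfactant that persists in the body, into the stomach at 10 mg per kg body weight each day for 3 weeks. The labels name no vehicle for the controls and no array batch. Dosing into the stomach, and any batch that follows the groups, thus cannot be told apart from PFOS. No cells were sorted. The study asked which spleen transcripts differ with PFOS, as a way into how it is toxic.

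Red pulp macrophages sit in the blood-filled red pulp and engulf ageing red cells. They break down haemoglobin, open the haem ring with haem oxygenase to release iron, carbon monoxide and biliverdin, and return iron to the plasma through the exporter ferroportin. The transcription factor Spi-C sets up this cell type, the receptor Csf1r keeps it alive, and Vcam1 is among the genes that depend on Spi-C. Several members are shared with other cells: Vcam1 with stroma and endothelium, Treml4 and Axl with dendritic cells, Slc11a1 with neutrophils and monocytes, and Slc40a1 with red cell precursors and liver macrophages.

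Values are log2 RMA intensities, in which 1 unit is a 2-fold change. RMA gives all arrays nearly the same distribution, so a change is relative to the rest of the array. The array medians lay between 6.15 and 6.18, and no array stood apart within its group: arrays correlated at 0.9985 to 0.9991 within groups and at 0.969 to 0.970 between them over 13101 genes. A gene's SD within a group had a median of 0.037 (control) or 0.039 (PFOS). The label of sex was not borne out by the arrays. Xist, the X-inactivation transcript, lay at 5.62 to 5.86 on all 6 arrays, near the lower limit of 5.62 set for testing, while the Y-linked Eif2s3y lay at 9.62 to 9.91. This held for both groups. By their labels the 6 are biological replicates; the p-values measure the spread between these 6 samples alone, which may be technical. In whole spleen, more cells of a type and more RNA per cell cannot be told apart.

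Promoter windows from RefSeq (build GRCm38.p6, 250 bases before to 50 after the gene's start) were found for 6 of the 10 members: Spic, Mertk, Axl, Slc11a1, Hpgd and Treml4. Spic is shown as the lineage factor, Mertk and Axl as a receptor pair that rose by different amounts, and Slc11a1 as the iron transporter that rose. Capitals mark GAGGAA on either strand, the core bound by PU.1 and Spi-C.
Spic, chr10:88682974-88683273, minus strand: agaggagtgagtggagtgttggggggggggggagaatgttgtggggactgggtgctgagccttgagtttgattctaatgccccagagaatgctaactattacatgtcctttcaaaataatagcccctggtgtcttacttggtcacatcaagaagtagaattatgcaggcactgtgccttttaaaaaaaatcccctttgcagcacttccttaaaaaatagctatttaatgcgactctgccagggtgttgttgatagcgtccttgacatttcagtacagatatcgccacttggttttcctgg
Mertk, chr2:128698665-128698964, plus strand: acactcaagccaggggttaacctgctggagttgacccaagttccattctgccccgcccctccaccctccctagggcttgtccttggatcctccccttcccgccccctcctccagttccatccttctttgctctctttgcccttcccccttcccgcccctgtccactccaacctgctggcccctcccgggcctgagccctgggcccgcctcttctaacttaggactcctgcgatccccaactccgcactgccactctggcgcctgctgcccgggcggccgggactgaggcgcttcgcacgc
Axl, chr7:25788684-25788983, minus strand: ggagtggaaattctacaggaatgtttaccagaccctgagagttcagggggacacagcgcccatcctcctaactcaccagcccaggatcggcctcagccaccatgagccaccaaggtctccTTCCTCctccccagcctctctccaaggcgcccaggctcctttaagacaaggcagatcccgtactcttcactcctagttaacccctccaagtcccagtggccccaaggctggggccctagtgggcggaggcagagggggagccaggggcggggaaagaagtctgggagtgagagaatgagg
Slc11a1, chr1:74374953-74375252, plus strand: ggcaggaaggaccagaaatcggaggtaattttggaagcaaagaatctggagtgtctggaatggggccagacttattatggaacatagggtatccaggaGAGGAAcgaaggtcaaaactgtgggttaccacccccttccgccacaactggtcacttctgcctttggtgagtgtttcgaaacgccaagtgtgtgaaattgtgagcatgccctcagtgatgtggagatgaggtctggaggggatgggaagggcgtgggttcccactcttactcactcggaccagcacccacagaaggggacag
The letters GAGGAA occurred on either strand in 28.3% of all 32851 windows of 300 bases. Axl has it 130 bases before the start, Slc11a1 152 bases before, Hpgd 230 bases before, and Treml4 at 178 and 87 bases before. The windows of Spic and Mertk hold none. The core TGACNNNGC of the antioxidant response element, the letters read by NRF2 and Bach1, was in 12.4% of all windows and in 0 of the 6 member windows. These are matches of letters, not shown binding sites. No window was found for Vcam1, Hmox1, Slc40a1 and Csf1r, so the counts do not cover them. At a share of 12.4%, 0 of 6 windows is too few to read as an absence.

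Most members were higher in the spleens of mice given PFOS, by amounts that ranged from slight to about 1.6-fold. Of the 10 genes, 9 were called higher and 0 lower (limma adjusted p under 0.05 over 13101 genes). Among all genes tested 40.6% were called higher and 26% lower, so 66.6% were called in either direction. By the probe set that stands for each gene, Vcam1, Spic and Mertk rose most, Hpgd, Slc11a1 and Slc40a1 rose less, and Axl, Csf1r and Treml4 rose least. Hmox1, the haem oxygenase itself, did not pass the test. The members' median change was 0.21, against a median of 0.05 and an upper quartile of 0.19 over all genes tested. The lowest PFOS array exceeded the highest control array in all 10 genes, which was so for 43.2% of genes tested.

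**Figure D1:**
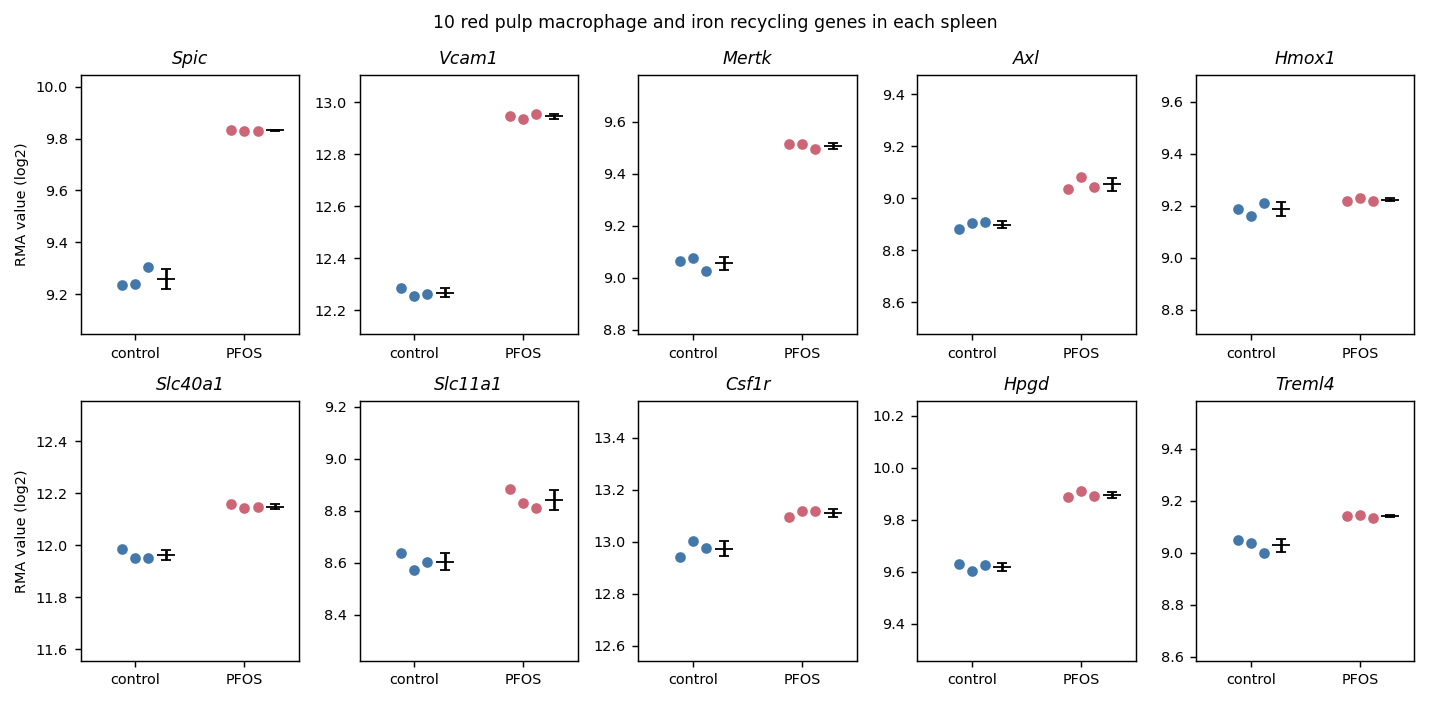
Log2 RMA value (y axis, 1 unit high in every panel) of the probe set that stands for each of the 10 genes, in 3 control and 3 PFOS spleens (points), with mean and SD beside them. The groups are far apart for Vcam1, Spic and Mertk and close together for Hmox1, at 9.19 and 9.22.

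These sizes rest on how arrays are scaled. A set of 27 probe sets is named for bacterial spikes added at labelling. Their mean lay at 6.29 on each control array and at 5.79 to 5.84 on the PFOS arrays. These levels are not far above the limit of 5.62 set for testing. The probe sets were picked by name, and their worth as a reference was not tested. Scaling on that mean adds 0.48 to every change and raises the median of all genes from 0.05 to 0.53. It turns every fall smaller than 0.48 that is given below into a rise. Of all calls 61.0% were higher as deposited and 93.8% with that scaling, while 45.7% were higher with scaling on ribosomal protein genes, which takes 0.06 from every change. Of the 10 members, 9 lay above the median of all genes, a count that adding 1 value to every change cannot alter. The shift of the labelling spikes was not seen in the 18 probe sets of spikes added at hybridization. Their mean was 9.997 in control and 9.995 in PFOS.

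Spic encodes Spi-C, the factor that red pulp macrophages need to form. Its probe set 1418555_x_at read 9.24, 9.24 and 9.31 in the control spleens and 9.83, 9.83 and 9.83 in the PFOS spleens. All 3 PFOS arrays were over 0.5 above the highest control, and they differed from each other by less than the controls did. The change was 0.57 ± 0.03 (SE, n = 3 per group) or 1.49-fold (limma adjusted p = 1.88e-06), and 1.20% of genes tested rose more. The second probe set, 1449134_s_at, read 9.37, 9.07 and 9.11 in control and 10.00, 9.70 and 9.76 in PFOS. Its arrays spread more widely (SD 0.16 in each group), and the first-numbered spleen was the highest in both groups. It changed by 0.64 ± 0.10 in the limma fit over all 45037 non-control probe sets (adjusted p = 0.0015). Both probe sets carry suffixes that Affymetrix gives where probes can match other transcripts, so no reading of Spic is free of that limit.

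Csf1r is the receptor for the growth factors Csf1 and Il34 that keep macrophages alive. Its brightest probe set, 1419872_at, read 12.941, 13.002 and 12.976 in control and 13.093, 13.119 and 13.117 in PFOS. The groups did not overlap, and the change was 0.14 ± 0.03 or 1.10-fold (limma adjusted p = 0.0024). Its other probe sets placed the change on both sides of this: 0.30 ± 0.03 for 1419873_s_at (adjusted p = 0.000149 over all probe sets) and 0.07 ± 0.03 for 1423593_a_at (adjusted p = 0.098). The call of Csf1r was lost with scaling on ribosomal protein genes (limma adjusted p = 0.052).

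Vcam1, an adhesion molecule through which red pulp macrophages hold other cells, had the largest change of the 10 on its brightest probe set. Its brightest probe set, 1448162_at, read 12.29, 12.26 and 12.26 in control and 12.95, 12.94 and 12.95 in PFOS. Neither group spread by more than 0.04, and the change was 0.68 ± 0.02 or 1.60-fold (limma adjusted p = 2.94e-07). Only 0.435% of genes tested rose more. The other probe sets of Vcam1 changed less, 1451314_a_at by 0.32 ± 0.03 (adjusted p = 0.000157 over all probe sets) and 1415989_at by 0.15 ± 0.03 (adjusted p = 0.0078). The gap between the brightest probe set and 1415989_at was 3.29 to 3.35 on the control arrays and 3.83 to 3.89 on the PFOS arrays, so the size of the rise differs between probe sets. The mean over the 3 probe sets changed by 0.38, below Mertk (0.45) and the mean over the probe sets of Spic (0.60).

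Mertk and Axl are receptor kinases that bind dying cells through the bridging proteins Gas6 and protein S. Mertk read 9.06, 9.08 and 9.03 in control and 9.52, 9.51 and 9.49 in PFOS on its single probe set. The gap between the groups was many times the spread within either, and the change was 0.45 ± 0.02 or 1.37-fold (limma adjusted p = 3.64e-06). Axl read 8.88, 8.90 and 8.91 in control and 9.04, 9.08 and 9.04 in PFOS. Its groups also stayed apart, with a smaller change of 0.16 ± 0.02 or 1.11-fold (limma adjusted p = 0.00097). The second Axl probe set, 1438621_x_at, lay at 3.01 to 3.09 on all arrays, below the limit for testing, and its difference was -0.05 ± 0.03 (adjusted p = 0.193 over all probe sets).

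Hmox1 is the inducible haem oxygenase, which cuts the haem ring. Its probe set 1448239_at read 9.19, 9.16 and 9.21 in control and 9.22, 9.23 and 9.22 in PFOS. The PFOS arrays lay just above the highest control, but the difference of 0.04 ± 0.02 did not pass the test (limma adjusted p = 0.218), with a 95% interval from -0.02 to 0.09. The upper end of the interval lies below the estimate of the probe set that stands for each other member. In the fit over all probe sets the interval reached 0.109. Either interval takes the arrays' scale as given. Hmox1 was called higher with quantile normalization (0.08, limma adjusted p = 0.026) and with scaling on the labelling spikes (0.51). It differed by -0.03 with scaling on ribosomal protein genes.

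Slc40a1 is ferroportin, the iron exporter of macrophages. Its brightest probe set, 1417061_at, read 11.98, 11.95 and 11.95 in control and 12.16, 12.14 and 12.15 in PFOS. The change was 0.19 ± 0.02 or 1.14-fold (limma adjusted p = 0.000278), with no overlap. Its other probe set, 1448566_at, read 9.24, 9.25 and 9.24 in control and 9.27, 9.30 and 9.26 in PFOS, a difference of 0.03 ± 0.03 that did not pass (adjusted p = 0.438 over all probe sets). The mean over both changed by 0.11 (limma adjusted p = 0.0026). Slc11a1 is Nramp1, which moves iron out of the vesicle that holds the engulfed cell. It read 8.64, 8.57 and 8.60 in control and 8.88, 8.83 and 8.81 in PFOS, a change of 0.24 ± 0.03 or 1.18-fold (limma adjusted p = 0.000337). Both groups spread more than those of Slc40a1 and still did not overlap.

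Hpgd, which inactivates prostaglandins, read 9.63, 9.60 and 9.62 in control and 9.89, 9.91 and 9.89 in PFOS on 1419905_s_at. The change was 0.28 ± 0.02 or 1.21-fold (limma adjusted p = 3.41e-05), with tight groups far apart. Its other probe set, 1419906_at, lay between 5.29 and 5.47 on all arrays, below the limit for testing, and its groups overlapped. Treml4 is a receptor of the TREM-like family that binds dead cells. It read 9.048, 9.040 and 8.998 in control and 9.143, 9.147 and 9.136 in PFOS, a change of 0.11 ± 0.02 or 1.08-fold (limma adjusted p = 0.0046). This was the smallest change among the called members by the probe set that stands for each, and its call was lost with scaling on ribosomal protein genes (limma adjusted p = 0.104).

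**Figure D2:**
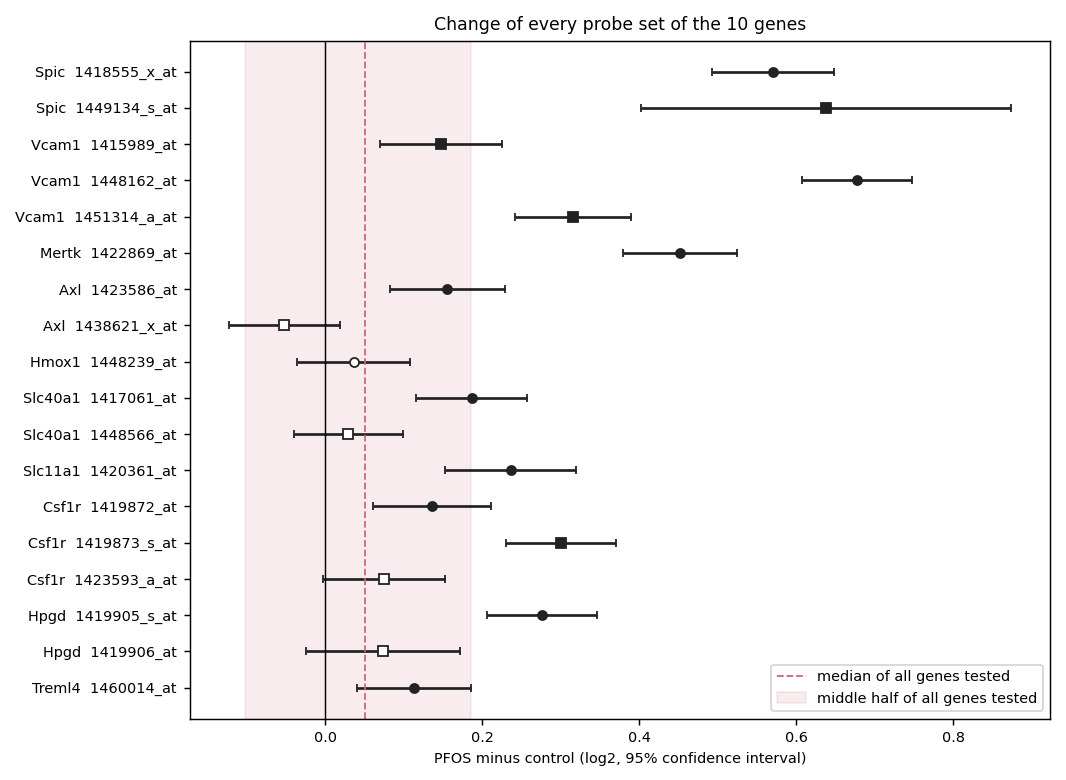
PFOS minus control (log2, x axis) with its 95% confidence interval for all 18 probe sets of the 10 genes, from the fit over all probe sets. Circles stand for a gene in the gene fit, squares are its other probe sets, filled symbols passed an adjusted p of 0.05, and the band holds the middle of all genes tested, from -0.10 to 0.19, with their median at 0.05.

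Read by probe set, 13 of the 18 were called higher and 0 lower, where 30.2% of all 45037 probe sets were called higher. The level limit of 5.62 was met by 16 of the 18. The 5 not called were those of Hmox1, the dim ones of Axl and Hpgd, and 1 each of Slc40a1 and Csf1r. All 5 multi-probe-set members other than Spic had probe sets that differed in call or by over 0.1 in size. The probe sets that stand for Spic and Hpgd are of the cross-matching kind; without the probe sets suffixed _s_at, _x_at and _a_at neither gene was tested, and 7 of the remaining 8 members were called higher.

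Among the genes that handle haem and iron around the members, more were called lower than higher as deposited. Over all genes tested, 40.6% were called higher and 26% lower. Of 20 tested genes of haem breakdown and its regulators, members left out, 10 were called lower and 7 higher, with a median change of -0.11. Of 20 iron handling genes 12 were lower and 3 higher (median -0.22). Scaling on the labelling spikes turned both balances, to 14 higher and 5 lower for haem and 12 higher and 6 lower for iron. Among the partners of Hmox1, the receptor Cd163, which takes up haemoglobin, rose by 0.33 ± 0.02, and Hmox2, the constitutive haem oxygenase, by 0.33 ± 0.03. Abcc1, an exporter, rose by 0.36 ± 0.02. Blvrb, a biliverdin reductase abundant in red cells, changed by -1.24 ± 0.02 (2.36-fold lower, limma adjusted p = 1.76e-08), while the other reductase, Blvra, changed by 0.07 ± 0.03 (limma adjusted p = 0.041). Slc48a1, which carries haem out of the phagocytic vesicle, changed by -0.24 ± 0.03, and the haem exporter Abcg2 by -1.36 ± 0.03. The haem-sensing repressor Bach1 (-0.04 ± 0.03, limma adjusted p = 0.293) and Nfe2l2, which encodes NRF2 (-0.05 ± 0.03, limma adjusted p = 0.231), did not pass. Nr1h3, the liver X receptor of macrophages, rose by 0.23 ± 0.04.

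Several iron storage and uptake genes were lower, and 5 of the 20 iron genes did not pass. The ferritin heavy chain Fth1 read 13.54 in the control mean and 13.20 in the PFOS mean, a change of -0.34 ± 0.02 (limma adjusted p = 1.06e-05). Slc11a2, the other iron transporter of the Nramp family, changed by -0.19 ± 0.03, opposite in sign to Slc11a1. Tfrc, the transferrin receptor, changed by -1.59 ± 0.02 (3.01-fold lower, limma adjusted p = 1.00e-08), and Tfr2 by -2.07 ± 0.03. Hamp, the liver hormone hepcidin that blocks ferroportin, changed by -0.77 ± 0.06 to a PFOS mean of 5.49, under the limit for testing. The ferroxidase Cp changed by -0.44 ± 0.03, with 2 of its 6 other probe sets opposite in sign, and Heph was not tested because its mean lay under the limit. The haemoglobin scavenger Hp changed by -2.98 ± 0.03, and Lcn2 by -1.48 ± 0.04. The 3 iron genes called higher were Pcbp2 (0.20 ± 0.02, with both other probe sets opposite), Hfe (0.25 ± 0.03) and Steap4 (0.12 ± 0.04).

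Markers of red cell precursors and of liver cells moved with these falls. All 15 tested red cell precursor markers were lower, with a mean level of the list of 10.45 to 10.48 in control and 9.03 to 9.06 in PFOS; Klf1 changed by -2.05 ± 0.02 and Kel by -2.18 ± 0.02. All 14 hepatocyte markers were lower, from 8.34 to 8.36 down to 5.16 to 5.20, and 11 of them had PFOS means under the limit. Alb read 11.03 in control and 5.87 in PFOS. Tfrc, Tfr2, Blvrb and Abcg2 are known from red cell precursors and Hp, Hamp and Cp from liver, and the part of those cells in each result was not tested.

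**Figure D3:**
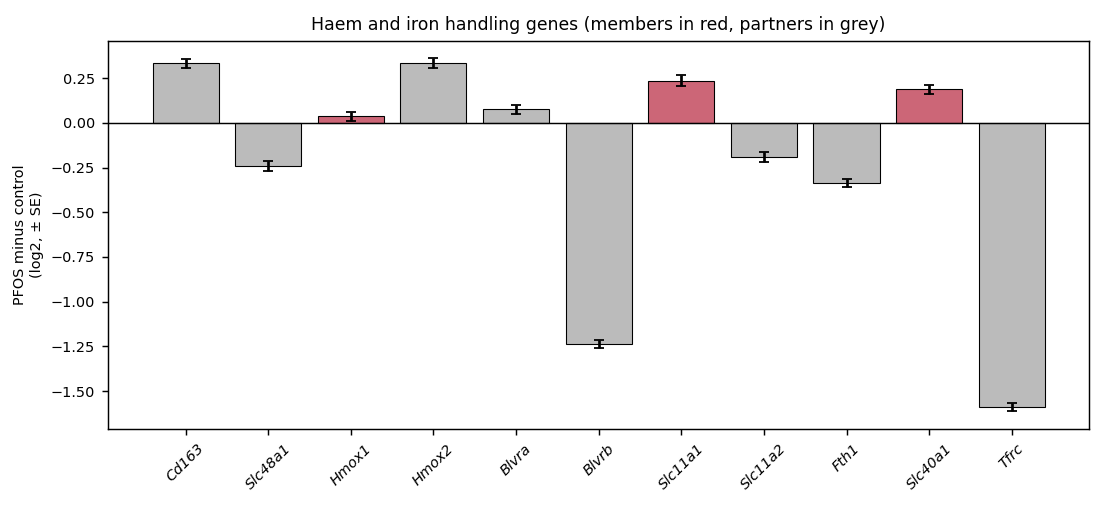
PFOS minus control (log2, bars from 0, error bars SE) for selected haem and iron handling genes, in order from haemoglobin uptake to iron export and transferrin uptake. Abcc1, Abcg2, Hp and Tfr2 are among the genes not drawn. The members Slc11a1 and Slc40a1 were higher by 0.24 and 0.19, and Hmox1 stayed at 0.04. Of the partners drawn, Cd163, Hmox2 and Blvra lay above 0, and Blvrb, Slc48a1, Slc11a2, Fth1 and Tfrc lay below 0.

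Most of the listed genes for engulfment were called in the direction of Mertk. Among all genes tested 40.6% were called higher and 26% lower, and the upper quartile of change was 0.19. Of 25 tested phagocytic receptors, bridging proteins and engulfment genes besides Mertk and Axl, 17 were called higher and 2 lower, with a median of 0.16. The complement component C1qc rose by 0.42 ± 0.02, Sirpa, the receptor for the "do not eat" signal, by 0.39 ± 0.03, and the integrin chain Itgav by 0.39 ± 0.03, though its other probe set went the other way. Cd47, the ligand of Sirpa, which red cells carry, changed by -0.24 ± 0.02, and the engulfment factor Dock1 by -0.09 ± 0.03. The ligands of Mertk and Axl did not pass: Gas6 differed by -0.06 ± 0.04 (limma adjusted p = 0.159) and Pros1, which encodes protein S, by 0.08 ± 0.04 (limma adjusted p = 0.095). The third receptor of the family, Tyro3, lay at 6.10 in control and 6.07 in PFOS (limma adjusted p = 0.772).

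Around Csf1r and Spic, 12 of 21 tested ligands, partners and myeloid factors were called higher and 3 lower (median 0.16). The shares over all genes tested were 40.6% higher and 26% lower. Spi1, which encodes PU.1, the close relative of Spi-C, rose by 0.49 ± 0.03 (limma adjusted p = 3.69e-06). Klf4, a monocyte factor, rose by 0.64 ± 0.03, and Tyrobp, an adaptor of TREM receptors, by 0.36 ± 0.02. Csf1, the main ligand of Csf1r, lay at 9.78 in both groups (0.00 ± 0.03, limma adjusted p = 0.981), and Il34 changed by -0.15 ± 0.05 to a PFOS mean of 5.83. Cebpb changed by -0.33 ± 0.03 and Runx1 by -0.13 ± 0.04, with 2 of the 3 other Runx1 probe sets opposite. Among 7 genes of the TREM family and its adaptors, 3 were higher and 2 lower (median 0.00). Tyrobp and Trem2 count as higher both here and in the list around Csf1r. Hcst rose by 0.50 ± 0.03 and Trem2 by 0.16 ± 0.04, and Trem3 and Treml1 changed by -0.09 ± 0.03 and -0.06 ± 0.02. The count of 2 lower ran from 0 to 3 over the other settings, and was 0 or 1 without any 1 array.

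Adhesion genes listed around Vcam1 were split. Of 11 tested 8 were higher and 2 lower (median 0.29), beside 40.6% higher and 26% lower over all genes tested. The list holds other adhesion molecules and integrin chains too, so these counts do not describe binding partners of Vcam1 alone. The 2 lower genes encode the chains of the Vcam1 receptor VLA-4, Itga4 (-0.21 ± 0.03, limma adjusted p = 0.000235) and Itgb1 (-0.20 ± 0.02, with its other probe set opposite). The higher ones included Pecam1 (0.46 ± 0.02), Itgb2 (0.35 ± 0.02) and Itgal (0.39 ± 0.03), whose other probe set was opposite. Around Hpgd, 4 of 14 tested prostaglandin genes were higher and 3 lower (median 0.03), against 2 higher and 5 lower with scaling on ribosomal protein genes. Slco2a1, the transporter that brings prostaglandins to Hpgd, rose by 0.13 ± 0.03, but 2 of its 3 other probe sets were opposite. The phospholipase Pla2g4a rose by 0.31 ± 0.03 and the prostacyclin receptor Ptgir by 0.29 ± 0.07. Ptgds, Cbr1 and Ptgr1 changed by -0.35 ± 0.05, -0.24 ± 0.04 and -0.08 ± 0.02, and Ptgs2 lay under the limit for testing at 3.22 in control and 3.39 in PFOS.

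**Figure D4:**
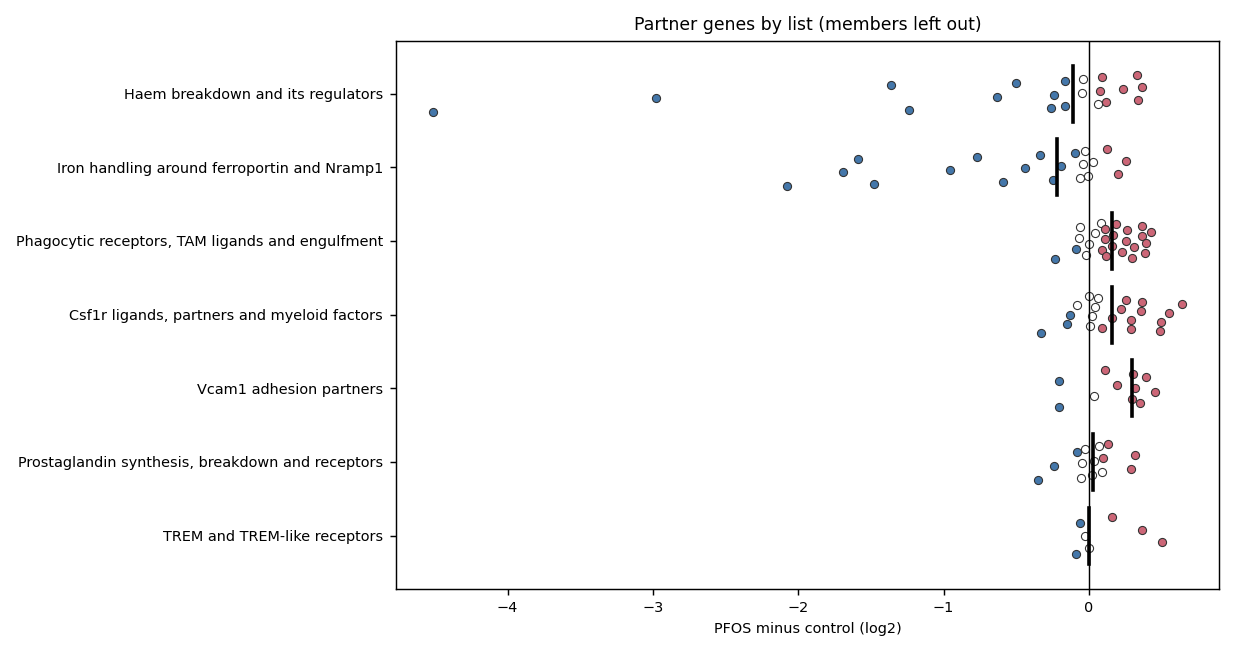
PFOS minus control (log2, x axis) for each tested gene of 7 lists of partner genes, members left out. Red points were called higher, blue lower and white not called. The black bar is the list median, which runs from -0.22 for iron handling to 0.29 for the list labelled Vcam1 adhesion partners. That list also holds adhesion genes that are not partners of Vcam1.

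Other markers of the red pulp macrophage did not move as one. Of 20 tested, 15 were higher, 2 lower and 3 not called, with a median of 0.17. For all genes tested the shares were 40.6% higher and 26% lower. Fcgr3, an Fc receptor, rose by 0.47 ± 0.03 and the lectin Clec4n by 0.43 ± 0.02. Paqr9, at -1.39 ± 0.05, and Hebp1, at -0.47 ± 0.02, were lower. Adgre1, the surface antigen by which these cells are commonly sorted, differed by 0.02 ± 0.03 and Cd5l by 0.03 ± 0.03, neither called; both are named here after their values were seen. The mean level of the list ran from 8.83 to 8.84 in control and from 8.92 to 8.94 in PFOS.

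Lymphocyte markers rose, and those of the other cell types taken up here were mixed. Over all genes tested the shares called were 40.6% higher and 26% lower. The part of lymphocytes and of these other cells in the members' changes, that of Spic included, was not tested. Of 9 B cell markers 8 rose (median 0.48; Cd79a 0.62 ± 0.02, Fcer2a 0.52 ± 0.02), and of 9 T cell markers 9 rose (median 0.62; Bcl11b 0.72 ± 0.02, Cd3d 0.68 ± 0.02), both medians above that of the 10 members. Dendritic cell markers, which matter for Axl and Treml4, rose for 9 of 13 genes and fell for 1 (median 0.17), with Itgax at 0.55 ± 0.03, Dpp4 at 0.48 ± 0.03 and Bst2 at -0.20 ± 0.03. Stromal and endothelial markers, which matter for Vcam1, rose for 10 of 18 genes and fell for 2 (median 0.10), with Cxcl13 at 0.53 ± 0.02 and Col3a1 at -1.01 ± 0.03. Neutrophil markers, which matter for Slc11a1, fell for 6 of 9 genes and rose for 1 (median -0.37), with Camp at -0.96 ± 0.02 and Ngp at -0.84 ± 0.02. Monocyte markers rose for 4 of 9 genes and fell for 3 (median 0.06), among them Ccr2 at 0.32 ± 0.03 and Chil3 at -0.57 ± 0.04. The balance turned for monocytes with scaling on ribosomal protein genes (2 higher, 3 lower) and for neutrophils with scaling on the spikes (5 higher, 4 lower).

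For resident macrophages outside the red pulp the marker lists were short. Among all genes tested 40.6% were called higher and 26% lower, so such counts say little about these cells. Marginal zone and metallophilic markers rose for 3 of 7 genes and fell for 0 (median 0.04), with Cd209a at 0.43 ± 0.07 and Sema6d at 0.26 ± 0.03. Liver macrophage markers rose for 2 of 6 genes and fell for 0 (median 0.01), namely Timd4 at 0.36 ± 0.04 and Clec1b at 0.21 ± 0.03. Clec4f, which defines the liver macrophage, lay at 5.77 to 5.83 in control and 5.63 to 5.86 in PFOS, near the limit for testing in both groups, and Vsig4 lay under it. The part of these cells in the members' changes was not tested.

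Over the 6 arrays, the 5 genes whose centred profile lay nearest to that of Spic were Gprasp1, Tnfrsf13b, Grcc10, St6gal1 and Dtx1, at root mean square differences of 0.013 to 0.020. Their changes ran from 0.55 to 0.59. Those nearest to Hmox1 were Trav12n-2, Tmem106b, Ube2v2, Eif3i and Olfml2a, at 0.0038 to 0.0069. The changes of these 5 ran from 0.034 to 0.044. No member was among the nearest genes of Spic or Hmox1. Nearness here follows mainly the size of the change, and no other member had a change in either range.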

How the data were processed

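RNA of 6 whole spleens was measured on Affymetrix Mouse430_2 arrays, 1 per sample, from 6 ug total RNA extracted with Trizol and labelled with biotin, per the labels' protocols. The deposited log2 values come from RMA, which corrects background, normalizes between arrays and summarizes probes, per the submitters' processing notes. For its version, and for any filter or test, the sources used here say nothing. No scanner files or detection calls were used, so no probe set was called present or absent. No build is named, so coordinates are given for RefSeq promoter windows only.

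The 64 control probe sets and those without exactly 1 symbol (932 with several, 9160 with none) were left out of the gene fit, as were probe sets with a mean under the 40th percentile (5.62); the highest-mean probe set stood for its gene. All 10 members passed. Groups were compared, as PFOS minus control, by limma 3.58.1 in R 4.3.3 (lmFit, eBayes, two-sided, no block), adjusted by Benjamini-Hochberg over 13101 genes. A second fit took all 45037 non-control probe sets unfiltered. The procedure was tested on simulated data in which few genes changed and noise was independent between genes. Most genes were called in the real data, so that test does not show how the procedure fares here. The number of arrays, 3 per group, limits the precision.

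Members and gene lists were chosen with earlier results of these data known. Some genes stand in several lists, among them C1qa, C1qb, C1qc, Cd163, Trem2 and Tyrobp, so the list counts are not independent. Named partners are up to 3 called genes per direction and list with the smallest p (2 for cell types) and fixed ligands, receptors and regulators; 26 listed symbols had no probe set of their own. Nearest profiles are the 5 with the smallest root mean square difference. Settings tried cover the filter, scaling, variance prior, array weights, probe set choice, threshold, replicate block and leaving out each array.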

Additional observations from a re-analysis of the deposited data

How the results depend on the processing

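The count of 9 members called higher was 9 or 10 under the other filters, median centring, quantile normalization, array weights, a robust trended prior, the mean over probe sets and an adjusted p under 0.01, and 9 without any 1 array. It was 7 with scaling on ribosomal protein genes, 10 with scaling on the labelling spikes and 4 when a change of at least 0.25 was also required. No setting called a member gene lower. Of 18 probe sets, 13 were called higher, 12 or 13 without any 1 array, 10 with scaling on ribosomal protein genes, 18 with scaling on the spikes and 7 with a change of at least 0.25. With scaling on ribosomal protein genes 1 probe set, the dim one of Axl, was called lower. Hmox1 turned with that scaling, to -0.026 (limma adjusted p = 0.381). With the replicate number as a block, 9 members and 13 probe sets were again higher; the block changed no member's call and 2 list counts by over 1.5 times. Same-numbered arrays deviated together at correlations of 0.32, 0.14 and 0.097. The arrays numbered 1 were each other's best match, as were those numbered 2, but those numbered 3 were not. Some pairing by number is thus possible, while the main fit was planned without pairs. Over all settings, 77 list counts moved by over 1.5 times and 607 did not, 21 of them with scaling on the spikes and 15 with the required change. Low signal limits the dim probe sets of Axl and Hpgd, which say little about their genes.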
